A study of Homo sapiens with 8 samples.

Results

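Plexins are single-pass receptors at the cell surface, semaphorins are their ligands, and neuropilins are co-receptors for the secreted ligands. The mRNA levels of 10 such genes were compared between cells overexpressing a tRNA methyltransferase and control cells: the plexins PLXNA1, PLXNA2, PLXNA3, PLXNB1, PLXNB2 and PLXND1, the semaphorins SEMA3F, SEMA4B and SEMA4C, and the neuropilin NRP1. The genes were listed by name, as large proteins made with an N-terminal signal peptide, by a rule that uses no measured value, but the list was drawn up with earlier results of these data known, so counts over it are a description. All 10 of these genes were found among the 58302 gene identifiers of the count table, and all 10 were among the 14133 genes with enough counts to be tested.

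The cells were DLD1, an established line of human colorectal cancer. The OE-WT group overexpressed TRMT6 and TRMT61A, the non-catalytic and catalytic subunits of the enzyme that places m1A (N1-methyladenosine) in tRNA, while the CTRL group carried an empty lentiviral vector. Each group had 2 libraries, and each library was read in 2 lanes. The labels name the 2 genes together as one overexpression, whereas the design text of the series speaks of the genes as transduced respectively, and the sources used here do not say whether a group was 1 clone or a pool. Each group was taken as 1 transduced line, since the study describes no independent transductions within a group. A change made by the transgenes and a difference between 2 lines therefore cannot be told apart. The p-values below are read as measuring only the spread between cultures of a line. Per the labels, cells were washed with cycloheximide, an inhibitor of translation, before RNA was taken from a cleared lysate. Sequencing depth was similar, with totals of 12379671 and 12063433 counts for CTRL and 10460284 and 10327498 for OE-WT. Levels are given as CPM, the counts of a gene scaled to a library of 1000000 counts, and a gene with a count of 0 could have a level of up to 0.233 to 0.302 CPM (3 counts).

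The overexpressed genes followed their labels. TRMT6 stood at 211 and 181 CPM in OE-WT and at 52.6 and 55.4 CPM in CTRL, and TRMT61A at 138 and 130 CPM against 58.9 and 56.8 CPM. The epithelial markers EPCAM, CDH1, KRT8 and KRT18 were abundant, and the summed level of all 8 epithelial markers was 11480 and 11770 CPM in OE-WT and 10340 and 10120 CPM in CTRL. Among those 8 markers LGALS4 and VIL1, markers of differentiated intestinal epithelium, were low in every library, and the calls went in both directions. KRT20, a keratin of differentiated intestinal cells, and CDH1, the adhesion protein E-cadherin, were called lower in OE-WT (log2 fold changes -1.52 and -0.29, edgeR adjusted p = 7e-08 and 0.0032). The keratins KRT8 and KRT18, which dominate the sum, were called higher (0.25 and 0.29, edgeR adjusted p = 0.017 and 0.0051), calls lost with library size scaling (adjusted p = 0.30 and 0.15) and without OE-WT replicate 2 (0.13 and 0.051), and for KRT8 also without CTRL replicate 2 (0.056) and with a replicate block (0.081). Of 12 markers of endothelial, stromal, immune and neural cells, 4 (CDH5, COL1A2, DCN and CD3E) had no count in any library, and the 12 summed to between 2.65 and 3.96 CPM. VWF, an endothelial marker and 1 of the 2 that could be tested, was called lower at 0.504 and 0.590 CPM in OE-WT and 2.33 and 1.14 CPM in CTRL (log2 fold change -1.65, edgeR adjusted p = 0.018). Without CTRL replicate 1 its value was -1.04 and the call was lost (adjusted p = 0.39), as it was without OE-WT replicate 1 (adjusted p = 0.097). Whether the differences in these markers have a part in the results below was not tested. These are bulk measurements, in which fewer cells that carry an mRNA and less of it per cell cannot be told apart.

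A plexin binds a semaphorin through a similar sema domain, and its cytoplasmic part then acts on small GTPases of the Ras and Rap kind, which changes adhesion to the matrix and the cytoskeleton. Class A plexins respond to secreted class 3 semaphorins, for which neuropilins supply the binding site, whereas class B plexins bind membrane-bound class 4 semaphorins without a neuropilin. The family was first known for steering axons, and in epithelia and carcinomas it is known for roles in migration, cell contacts and the growth of vessels.

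As cell surface and secreted proteins, the 10 products begin with a hydrophobic stretch that sends the nascent chain to the endoplasmic reticulum. The coding starts of 5 of them are shown because they span the range of responses given below and the range of this stretch. Each is the first 120 coding bases, or 40 codons, of the canonical transcript in GENCODE release 44 on GRCh38, and capitals mark the 11 codons in a row with the highest mean hydropathy on the Kyte-Doolittle scale.
PLXNA1, on the plus strand at chr3:126988594-126988713: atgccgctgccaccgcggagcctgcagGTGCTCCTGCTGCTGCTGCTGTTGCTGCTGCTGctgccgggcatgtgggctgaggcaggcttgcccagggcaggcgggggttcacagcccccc
PLXNA2, on the minus strand at chr1:208217803-208217922: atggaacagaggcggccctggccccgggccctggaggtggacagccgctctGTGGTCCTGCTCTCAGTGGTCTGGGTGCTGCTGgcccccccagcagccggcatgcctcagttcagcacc
PLXNB1, on the minus strand at chr3:48424492-48424611: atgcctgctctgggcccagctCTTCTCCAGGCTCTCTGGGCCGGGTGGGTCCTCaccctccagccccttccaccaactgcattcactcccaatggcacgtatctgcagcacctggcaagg
SEMA3F, on the plus strand within chr3:50159623-50173800 across 2 exons: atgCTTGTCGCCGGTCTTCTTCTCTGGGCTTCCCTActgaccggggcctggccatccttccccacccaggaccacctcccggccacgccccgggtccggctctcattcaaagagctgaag
SEMA4C, on the minus strand within chr2:96866421-96867886 across 2 exons: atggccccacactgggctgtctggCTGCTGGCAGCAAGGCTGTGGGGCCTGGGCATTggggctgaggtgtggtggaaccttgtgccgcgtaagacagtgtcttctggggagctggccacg
The mean hydropathy of the marked stretch was 3.84 in PLXNA1, where it is codons 10 to 20 and nearly all leucine, and 3.14 in PLXNA2. It was 2.25 in SEMA3F, 1.57 in PLXNB1 and 1.55 in SEMA4C. A value of at least 2.0 in the first 40 residues was taken as a hydrophobic segment, by which 8 of the 10 products had one. PLXNB1 and SEMA4C fell short of that limit, although both are membrane proteins. The measure is therefore only a rough reading of a signal peptide.

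The plexin proteins were long, from 1838 residues in PLXNB2 to 2135 in PLXNB1, and NRP1, SEMA4B, SEMA4C and SEMA3F had 923, 837, 833 and 785 residues. All were longer than the median of 465 residues of the protein-coding genes tested. Aligned end to end, PLXNA1 was 67.3% identical to PLXNA3 and 64.4% identical to PLXNA2, and PLXNA2 and PLXNA3 were 60.3% identical. PLXNB1 and PLXNB2 were 46.0% identical, and SEMA4B and SEMA4C 42.6%. The class A plexins are thus the closest relatives among the 10 genes.

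As a group the receptors and ligands were lower in OE-WT than in CTRL. By the edgeR quasi-likelihood test at a Benjamini-Hochberg adjusted p below 0.05 over all 14133 genes, 8 of the 10 genes fell and 0 rose. The same call of lower was made for 11.6% of all genes tested, and the call of higher for 9.44%. The 8 were PLXNA1, PLXNA3, PLXNB1, PLXNB2, PLXND1, SEMA4B, SEMA4C and NRP1, and the 2 not called were PLXNA2 and SEMA3F. The median log2 fold change of the 10 genes was -0.45, beside 0.01 over all genes tested, and 9 of the 10 values were below 0. In 8 of 10 genes both OE-WT libraries lay under both CTRL libraries, which held for 30.2% of all genes tested, and in 0 of 10 they lay above, which held for 29.9%. By the thresholds that the study's methods state for this kind of data (unadjusted p below 0.05 and absolute log2 fold change above 1), 1 of the 10 genes, PLXNB1, was lower and 0 were higher, beside 2.25% and 0.899% of all genes tested.

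**Figure D1:**
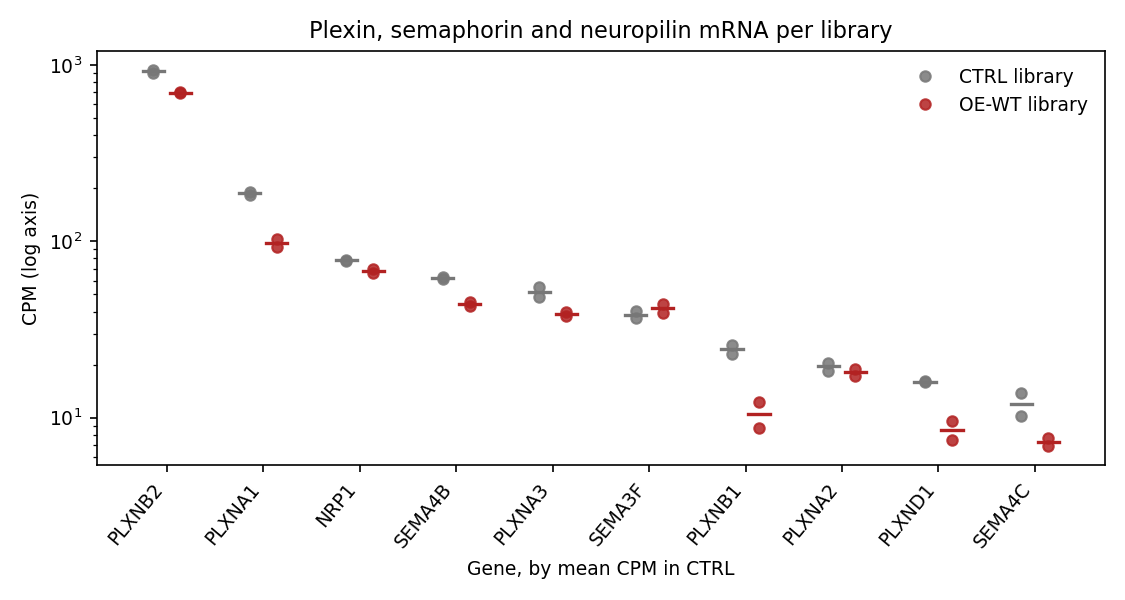
Level of each of the 10 genes in CPM (log axis) in the 2 CTRL and the 2 OE-WT libraries, ordered by the mean in CTRL. Points are libraries and short lines are group means. The points of PLXNA1, PLXNB1 and PLXND1 are the most widely parted, and those of PLXNA2 and SEMA3F overlap between groups.

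The class A plexins differed among themselves. PLXNA1 (ENSG00000114554, chr3:126982693-127037389, plus strand), a receptor for secreted semaphorins together with neuropilins, stood at 92.7 and 103 CPM in OE-WT and at 190 and 184 CPM in CTRL. Its highest OE-WT library was well under its lowest CTRL library, and its log2 fold change was -0.94 ± 0.07 (SE, n = 2 against 2; edgeR adjusted p = 7.9e-09), leaving 52.2% of the CTRL level. PLXNA3 (ENSG00000130827, chrX:154458281-154477779, plus strand) is a neighbour of PLXNA1 in sequence and works with neuropilins in the same way. It was counted 375 and 407 times in OE-WT and 706 and 594 times in CTRL, which after scaling gave mean levels of 38.9 ± 1.57 and 51.6 ± 4.71 CPM (SD, n = 2 each) in groups that did not overlap. Its log2 fold change was -0.41 ± 0.09 (edgeR adjusted p = 0.002). PLXNA2 (ENSG00000076356, chr1:208022242-208244384, minus strand), the third class A plexin measured, gave 17.2 and 18.9 CPM in OE-WT and 18.5 and 20.5 CPM in CTRL. These ranges overlapped, and its value of -0.11 ± 0.12 did not pass the test (edgeR adjusted p = 0.56). Its counts were 171 and 192 against 238 and 253, so the precision was lower than for PLXNA1, which had 920 and 1043 against 2443 and 2271. The ratio of PLXNA1 to PLXNA2, each per kilobase of exon, was 6.63 and 6.69 in OE-WT and 12.6 and 11.1 in CTRL, and the ratio of PLXNA1 to PLXNA3 was 2.56 and 2.67 against 3.61 and 3.98. PLXNA1 therefore made up a smaller part of the class A plexin mRNA in both OE-WT libraries, although the smallest two-sided p that an exact permutation test allows with 2 libraries a group is 0.333.

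Both class B plexins among the 10 genes fell, by unequal amounts. PLXNB1 (ENSG00000164050, chr3:48403854-48430086, minus strand), the receptor of SEMA4D that associates with the kinases MET and ERBB2, stood at 8.76 and 12.3 CPM in OE-WT and 26.0 and 22.9 CPM in CTRL. Both OE-WT libraries were far under both CTRL libraries, and with a log2 fold change of -1.21 ± 0.14 (edgeR adjusted p = 3.9e-06) its decrease was the largest of the 10 genes. Its counts in OE-WT were 87 and 125, and the 4 log2 ratios of an OE-WT to a CTRL library ran from -1.57 to -0.90. PLXNB2 (ENSG00000196576, chr22:50274979-50307646, minus strand), a receptor of several class 4 semaphorins that is widely expressed in epithelia, gave 692 and 699 CPM in OE-WT and 943 and 898 CPM in CTRL. The libraries of a group lay close together, and the log2 fold change was -0.40 ± 0.06 (edgeR adjusted p = 0.00012). With the trend of each library's levels on transcript GC content removed, PLXNB2 stayed called at a smaller value of -0.22. Per kilobase of exon, PLXNB2 was 106 and 76.5 times PLXNB1 in OE-WT and 48.8 and 52.7 times in CTRL. PLXND1 (ENSG00000004399, chr3:129555214-129606676, minus strand), the class D plexin known as a receptor of SEMA3E in vessels, stood at 7.45 and 9.63 CPM in OE-WT and 15.9 and 16.2 CPM in CTRL. It fell by 0.91 ± 0.15 on the log2 scale (edgeR adjusted p = 0.00023), to 53.3% of its CTRL level. The decreases of PLXNA1, PLXNB1 and PLXND1 kept their call in all 11 alternative analyses, which included leaving out each library, and so did those of PLXNA3, PLXNB2 and SEMA4B.

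NRP1 (ENSG00000099250, chr10:33177492-33336262, minus strand), the co-receptor with a short cytoplasmic tail that binds class 3 semaphorins and forms of VEGF, differed least among the 8 called genes. It stood at 65.9 and 69.6 CPM in OE-WT and at 77.6 and 78.8 CPM in CTRL. The groups did not overlap, and its log2 fold change was -0.21 ± 0.07 (edgeR adjusted p = 0.045), a level of 86.6% of CTRL. This call was lost in 6 of the 11 alternatives, with adjusted p = 0.24 by DESeq2, 0.074 without the filter on low counts, 0.11 with a replicate block, 0.27 without OE-WT replicate 1, 0.12 without CTRL replicate 1 and 0.15 without CTRL replicate 2. The exons of NRP1 overlap those of ENSG00000238258 on the opposite strand over 561 bases. The sources do not state whether the counting used the strand, and that gene was counted 96 and 99 times in OE-WT against 153 and 142 times, beside 654 and 708 against 998 and 971 for NRP1.

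The membrane-bound class 4 semaphorins among the 10 genes both fell. SEMA4B (ENSG00000185033, chr15:90160604-90229679, plus strand) stood at 42.8 and 45.3 CPM in OE-WT and 61.0 and 63.0 CPM in CTRL. The groups were clearly apart, with a log2 fold change of -0.49 ± 0.08 (edgeR adjusted p = 0.00012). SEMA4C (ENSG00000168758, chr2:96859718-96870757, minus strand), a ligand of PLXNB2, gave 7.66 and 6.88 CPM in OE-WT and 13.8 and 10.2 CPM in CTRL. Its groups did not overlap, its CTRL libraries differed from each other, and its log2 fold change was -0.73 ± 0.18 (edgeR adjusted p = 0.0052). Without CTRL replicate 1, the higher of its CTRL libraries, the log2 fold change was -0.49 and the call was lost (edgeR adjusted p = 0.12). The ratio of SEMA4B to SEMA4C per kilobase of exon was 5.01 and 5.90 in OE-WT and 3.95 and 5.52 in CTRL, ranges that overlap.

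The secreted ligand among the 10 genes did not pass the test. SEMA3F (ENSG00000001617, chr3:50155045-50189075, plus strand), a class 3 semaphorin that binds NRP2 by preference and is known as a repellent of vessels, stood at 39.5 and 44.03 CPM in OE-WT and 40.03 and 36.6 CPM in CTRL. The groups overlapped, and the log2 fold change was 0.12 ± 0.09 (edgeR adjusted p = 0.36). With the GC trend removed, SEMA3F was called higher, at 0.29 (edgeR adjusted p = 0.017). Its exons share 110 bases with those of SEMA3F-AS1 on the opposite strand, a noncoding gene counted 79 and 76 times in OE-WT and 108 and 95 times in CTRL, beside 392 and 448 against 515 and 451 for SEMA3F. PLXNA3 shares 5 bases with LAGE3 in the same way.

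Transcript abundance across the 10 genes covered a wide range. In RPKM, which is CPM divided by the exon length in kilobases, the mean CTRL levels were 127 for PLXNB2, 16.7 for PLXNA1, 8.86 for SEMA4B, 7.94 for SEMA3F, 6.79 for NRP1, 4.402 for PLXNA3, 2.501 for PLXNB1, 1.92 for SEMA4C, 1.68 for PLXND1 and 1.41 for PLXNA2. In that order every gene's CTRL libraries were apart from those of the next gene, except for SEMA4C and PLXND1, which overlapped. In OE-WT the mean RPKM was 95.7 for PLXNB2, 8.69 for PLXNA1, 8.65 for SEMA3F, 6.30 for SEMA4B, 5.88 for NRP1, 3.32 for PLXNA3, 1.30 for PLXNA2, 1.16 for SEMA4C, 1.08 for PLXNB1 and 0.894 for PLXND1. There PLXNA1 overlapped with SEMA3F, and PLXNB1 overlapped with PLXNA2, SEMA4C and PLXND1. PLXNB1 had a higher RPKM than PLXNA2 within each CTRL library and a lower one within each OE-WT library. The 6 plexins summed to 110 and 112 RPKM in OE-WT and 157 and 149 RPKM in CTRL, of which PLXNB2 alone made 86.9% and 85.6% against 82.6% in each CTRL library. PLXNA1 made 7.53% and 8.12% of that sum against 10.77% and 10.97%.

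Genes of other long products that start with such a hydrophobic segment were also lower as a class, which gives the 10 genes a closer background than all genes. Among the 796 other genes whose product has such a segment and at least 500 residues, the median log2 fold change was -0.22, and 36.1% were called lower and 4.90% higher. Among the 4496 genes with products of at least 500 residues and no segment, the median was 0.06 and 9.45% were called lower. Shorter segment products were also lower. Among the 1175 segment genes under 500 residues, the median was -0.20 and 31.5% were called lower. Against the 796, PLXNB1 had a lower value than all but 4.90% and PLXNA1 than all but 9.17%. PLXND1 was lower than all but 10.2% and SEMA4C than all but 15.6%. PLXNB1 and SEMA4C fell short of the segment limit, so by its definition they are outside this class. SEMA4B, PLXNA3 and PLXNB2 lay above 26.6%, 32.7% and 32.7% of these genes. NRP1 lay near their middle, above 51.1%, while PLXNA2 lay above 59.5% and SEMA3F above 81.0%. The decreases of PLXNA3, PLXNB2, SEMA4B and NRP1 were thus of a size common among large segment proteins. These positions describe the 10 genes and are no test, since they share the libraries with every other gene.

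**Figure D2:**
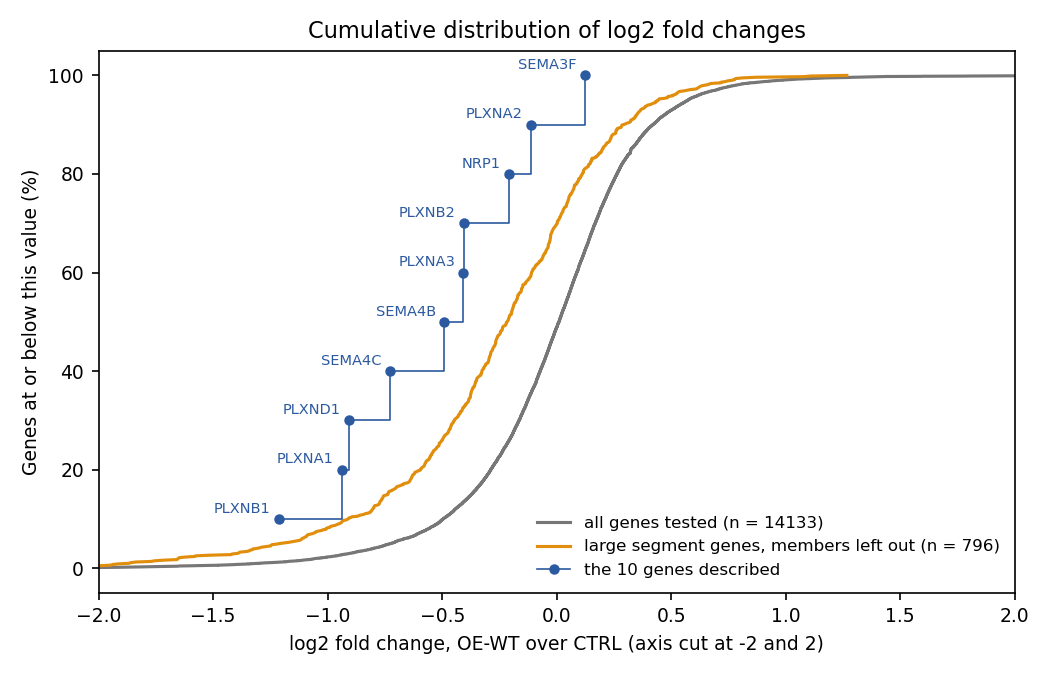
Cumulative percentage of genes (vertical axis) at or below each log2 fold change of OE-WT over CTRL (horizontal axis), for all 14133 genes tested, for the 796 other genes with a segment and at least 500 residues, and for the 10 genes, each a labelled point. The curve of segment genes lies to the left of that of all genes, and PLXNB1, PLXNA1 and PLXND1 stand in its lowest part.

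Other features of the 10 transcripts varied as well. GC content of the transcript was between 54.2% and 63.1% in 9 genes and 44.3% in NRP1, beside a median of 49.6% over the genes tested. The codons GAG and GAC are read by m1A target tRNAs of the study, which set their frequency against translation efficiency. Its other tRNAs with raised m1A read GCA and UUG, which were not counted here. GAG and GAC made up 5.63% of the codons of NRP1 and up to 10.7% of those of PLXNB2. In 9 of the 10 genes their share was above the median of 6.43%. PLXNB2, with the highest share of these codons, had a log2 fold change of -0.40, and PLXNB1, with 9.04%, had -1.21. PLXNA2 and PLXNA3 had 8.55% and 8.66% and values of -0.11 and -0.41. Whether the share of these codons has a part in the differences was not tested.

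Promoters were read for 9 of the 10 genes from the RefSeq table on GRCh38.p14, as 300 bases from 250 before to 50 after a transcription start. NRP1 had no entry in it. The promoters of PLXNA1 and PLXNA2 are shown because these are close relatives in sequence of which one fell and the other was not called, with capitals on each GGGCGG, the core of the SP1 box, or its reverse complement CCGCCC, overlapping matches included.
PLXNA1, plus strand, chr3:126982865-126983164: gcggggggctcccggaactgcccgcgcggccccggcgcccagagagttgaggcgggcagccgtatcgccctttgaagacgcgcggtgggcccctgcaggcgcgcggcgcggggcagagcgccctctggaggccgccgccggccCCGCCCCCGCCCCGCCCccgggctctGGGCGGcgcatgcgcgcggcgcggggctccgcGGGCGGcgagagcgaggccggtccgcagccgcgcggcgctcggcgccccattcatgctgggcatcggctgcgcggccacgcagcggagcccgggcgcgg
PLXNA2, minus strand, chr1:208244335-208244634: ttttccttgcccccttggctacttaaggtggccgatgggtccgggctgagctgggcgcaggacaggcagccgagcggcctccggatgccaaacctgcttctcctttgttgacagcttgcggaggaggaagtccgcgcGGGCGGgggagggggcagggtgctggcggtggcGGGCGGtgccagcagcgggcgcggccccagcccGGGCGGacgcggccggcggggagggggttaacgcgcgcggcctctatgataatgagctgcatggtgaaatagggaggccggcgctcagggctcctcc
The PLXNA1 window held 54 CpG dinucleotides at a GC content of 83.0%, and the PLXNA2 window 29 at 70.3%. On either strand, GGGCGG was present in 12 of the 14 promoters of these 9 genes, beside 44.95% of 35116 promoters in the table. Every gene had at least 1 promoter with it, but some genes have several promoters. The 14 windows ran from 53.0% to 87.3% GC, and no share over promoters of like GC content was taken. The E box CACGTG was in none of the 14 windows, beside 7.26% of all promoters. The core promoter motif TATAAA was in none of them either, beside 11.5%. TGACGTCA, the cAMP response element, was in the SEMA4C window alone, beside 1.85% of all. PLXNA2 and SEMA3F, which were not called, held GGGCGG as did the genes that fell. A match is a run of letters in this window and not a measured binding site.

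The remaining plexins, semaphorins and neuropilin gave a mixed picture with more decreases than increases. Of 21 such genes in the table, 14 had enough counts to be tested, and 7 of these were not called. Called lower were 6 (42.9%), beside 11.6% of all genes tested and 36.1% of the 796 large segment genes outside the 10. Called higher was 1 (7.14%), beside 9.44% and 4.90%. The median log2 fold change of the 14 was -0.33, beside 0.01 and -0.22. The 7 with too few counts were PLXNA4, PLXNC1, SEMA3D, SEMA3E, SEMA4A, SEMA5B and SEMA6D, none with more than 11 counts in a library. SEMA5A, a transmembrane semaphorin with thrombospondin repeats, stood at 9.27 and 9.44 CPM in OE-WT and 22.9 and 24.8 CPM in CTRL (log2 fold change -1.35 ± 0.13, edgeR adjusted p = 3.1e-07). SEMA7A, a lipid-anchored semaphorin that binds integrins and PLXNC1, stood at 4.84 and 5.60 CPM against 12.3 and 11.7 CPM (-1.20 ± 0.17, edgeR adjusted p = 4.1e-05). Their groups were far apart, and their log2 fold changes lay near that of PLXNB1. SEMA4D, the ligand of PLXNB1 and PLXNB2, stood at 27.3 and 31.2 CPM against 41.7 and 38.2 CPM (-0.45 ± 0.10, edgeR adjusted p = 0.002). With SEMA4F at -0.35 ± 0.09 (edgeR adjusted p = 0.0068), 4 of the 5 class 4 semaphorins tested were called lower, beside the same 11.6% and 36.1%. SEMA4G was the exception at -0.04 (edgeR adjusted p = 0.95). The PLXNB1 receptor and its ligand SEMA4D were both called lower, as were 36.1% of those large segment genes. Whether their decreases are linked was not tested.

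NRP2, the neuropilin that SEMA3F prefers, was the family gene called higher. It stood at 18.4 and 20.9 CPM in OE-WT and 14.1 and 15.6 CPM in CTRL, groups that did not overlap, with a log2 fold change of 0.41 ± 0.13 (edgeR adjusted p = 0.026). The ratio of NRP1 to NRP2 per kilobase of exon was 4.31 and 4.01 in OE-WT and 6.65 and 6.10 in CTRL. The NRP2 call was lost in 5 of 11 alternatives, with an adjusted p of up to 0.18, among them DESeq2 (0.16), library size scaling (0.075), and the fits without OE-WT replicate 2 (0.18) and without CTRL replicate 1 (0.16). SEMA3G and SEMA6C were called lower at -0.76 ± 0.20 (adjusted p = 0.010) and -1.19 ± 0.42 (adjusted p = 0.049) by edgeR. SEMA6C was counted only 10 and 6 times in OE-WT against 28 and 18 times, and its call was lost in 5 of 9 alternatives, among them without CTRL replicate 1 (adjusted p = 0.40), without OE-WT replicate 2 (0.30) and without OE-WT replicate 1 (0.074). DESeq2 did not call SEMA3G (adjusted p = 0.11) or SEMA4F (adjusted p = 0.079), and it gave no adjusted p for SEMA6C. By that tool 3 of the 14 genes, all lower, passed in place of 7. The genes not called were SEMA3B at -0.18 (edgeR adjusted p = 0.086), SEMA6B at -0.32 (0.065), SEMA3A at -0.21 (0.59), SEMA3C at -0.38 (0.49), SEMA6A at 0.15 (0.80), PLXNB3 at 0.05 (0.89) and SEMA4G. SEMA3B and SEMA6B were called lower with library size scaling (edgeR adjusted p = 0.015 and 0.014), SEMA3B also without OE-WT replicate 1 (0.050) and without CTRL replicate 1 (0.044), and SEMA6B also without OE-WT replicate 2 (0.029), while SEMA3B was above 0 with the GC trend removed. SEMA3F relative to the abundant SEMA3B, also a class 3 semaphorin, was 0.353 and 0.428 in OE-WT and 0.347 and 0.288 in CTRL, per kilobase of exon. Over the whole family, the 10 genes included, 14 of the 24 genes tested were called lower (58.3%) and 1 higher (4.17%), with a median log2 fold change of -0.39. The shares were 11.6% and 9.44% over all genes tested. Over the 796 large segment genes outside the 10 they were 36.1% and 4.90%.

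**Figure D3:**
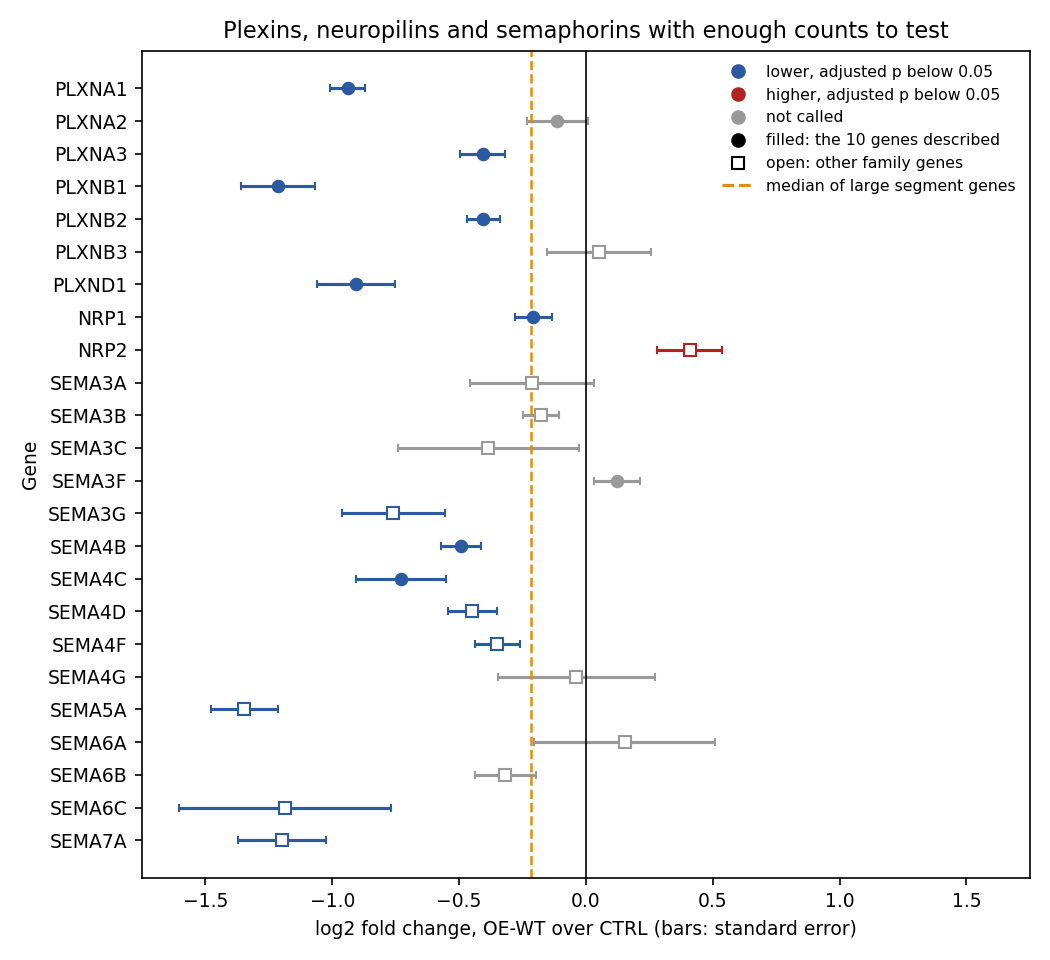
Log2 fold change of OE-WT over CTRL (horizontal axis) with its standard error for the 24 plexins, neuropilins and semaphorins tested, one per row, filled circles for the 10 genes described and open squares for the other 14. Blue marks the 14 called lower, red the 1 called higher (NRP2) and grey those not called, and the dashed line is the median of -0.22 of large segment proteins.

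Pooled over the lists, genes that act with these receptors were called lower and higher about as often as genes at large, but the lists differed. Of 56 co-receptors, cytoplasmic effectors and cleaving proteases, 47 were tested, 5 were called lower (10.6%, beside 11.6% of all genes tested), 6 higher (12.8%, beside 9.44%) and 36 not called, and the median log2 fold change was 0.03. Among the co-receptors and shared ligands, 8 of 12 were tested, with 3 called lower (37.5%), 1 called higher (12.5%) and a median of -0.22. Among the 796 large segment genes outside the 10 described, 36.1% were called lower and 4.90% higher, with a median of -0.22. The 8 were not sorted by whether they have a segment. ERBB2, the receptor kinase that associates with PLXNB1, stood at 196 and 202 CPM in OE-WT and 325 CPM in each CTRL library (-0.71 ± 0.06, edgeR adjusted p = 9.7e-08). MST1R, a kinase of the MET family, was lower by less (-0.33 ± 0.06, edgeR adjusted p = 0.00091). MET itself, at -0.03 (adjusted p = 0.87), and VEGFA, at -0.04 (adjusted p = 0.75), were not called. ITGA1, the integrin alpha subunit that pairs with ITGB1 in binding SEMA7A, was higher at 1.27 ± 0.26 (edgeR adjusted p = 0.0013), whereas ITGB1 was not called at -0.11 (adjusted p = 0.36), although with the GC trend removed it was called lower at -0.24 (adjusted p = 0.020). L1CAM was called lower at -0.99 ± 0.31 (edgeR adjusted p = 0.028), with 13 and 15 counts in OE-WT, and lost its call in 5 of 10 alternatives, which include leaving out any of the 4 libraries (adjusted p from 0.074 to 0.16).

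The cytoplasmic effectors carry the signal to GTPases and the cytoskeleton, and most of them were not called. Of 37 such genes 32 were tested, with 1 called lower, 4 called higher, 27 not called and a median log2 fold change of 0.06. RRAS, one of the GTPases on which plexins act, was the gene called lower (-0.45 ± 0.10, edgeR adjusted p = 0.0023). That call was lost with the GC trend removed (edgeR adjusted p = 0.055). DPYSL2 and DPYSL3, the collapsin response mediator proteins that regulate microtubules and actin downstream of semaphorins, were higher at 0.62 ± 0.07 (adjusted p = 9.4e-07) and 0.79 ± 0.10 (adjusted p = 6.1e-06) by edgeR. ARHGEF12, an exchange factor that binds class B plexins, was higher at 0.47 ± 0.10 (edgeR adjusted p = 0.0017). ROCK1, a kinase that acts on the actin cytoskeleton, was called higher at 0.76 ± 0.26 (edgeR adjusted p = 0.040), a call lost in 6 of 11 alternatives, among them without OE-WT replicate 1 (0.41, adjusted p = 0.48), without CTRL replicate 1 (adjusted p = 0.11) and without CTRL replicate 2 (adjusted p = 0.072). Of the 7 plexins tested, 5 were called lower, a call made for 36.1% of the 796 other large segment genes. The effectors were called lower in 3.12% and higher in 12.5%, beside 11.6% and 9.44% of all genes tested. Genes of long products with no segment were called lower in 9.45% and higher in 11.5%. The difference between plexins and effectors was not tested.

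Of the 7 proteases that cut semaphorins or activate them, MMP14 was called lower and PCSK5 higher. Each is 14.3% of the list, beside 11.6% of all genes tested called lower and 9.44% called higher. MMP14, the membrane-bound metalloprotease that can release SEMA4D from cells, stood at 14.9 and 15.5 CPM in OE-WT and 50.1 and 45.5 CPM in CTRL (-1.65 ± 0.10, edgeR adjusted p = 4.1e-10). FURIN, which cleaves class 3 semaphorins, was not called at -0.06 (adjusted p = 0.56). ADAM10 and ADAM17, sheddases of the cell surface, were not called at -0.22 and -0.19, but were called lower with library size scaling (edgeR adjusted p = 0.019 and 0.032) and with the GC trend removed (0.0055 and 0.017). PCSK5, a proprotein convertase, was called higher at 0.66 ± 0.22 (edgeR adjusted p = 0.035) and lost its call in 5 of 11 alternatives, among them without CTRL replicate 1 (0.35, adjusted p = 0.40) and without OE-WT replicate 1 or 2 (adjusted p = 0.054 and 0.053). The median of the 7 was -0.17.

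**Figure D4:**
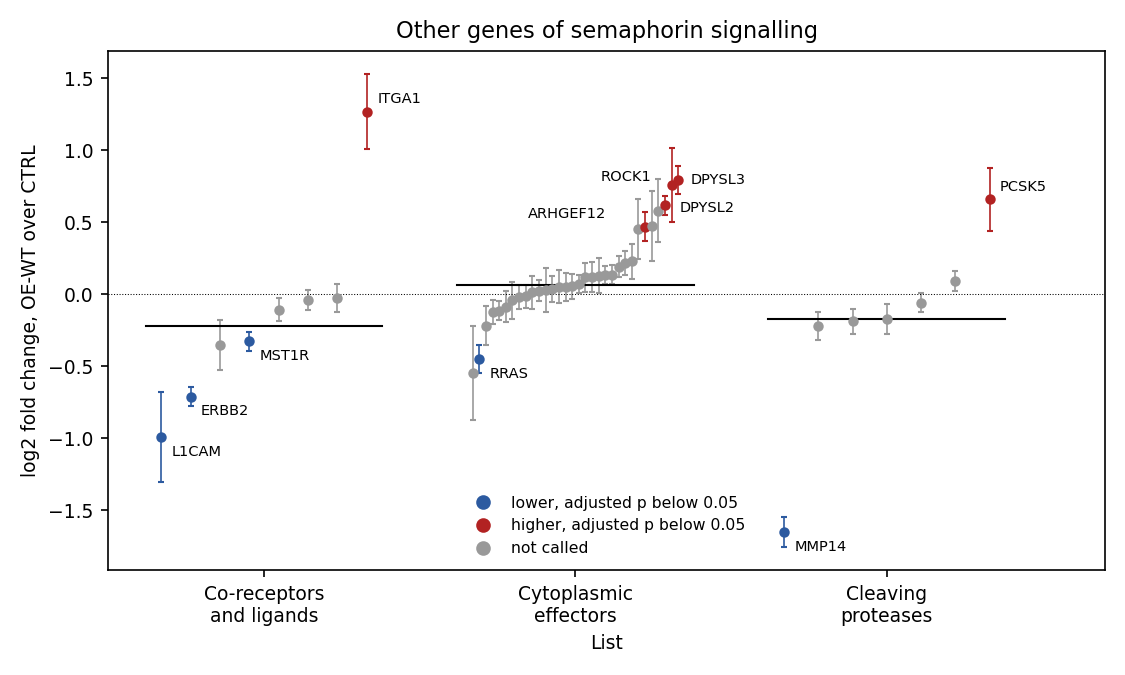
Log2 fold change of OE-WT over CTRL (vertical axis) with its standard error for each tested gene of the 3 lists on the horizontal axis, with 8 co-receptors and shared ligands, 32 cytoplasmic effectors and 7 cleaving proteases, sorted within a list. Horizontal lines are list medians (-0.22, 0.06 and -0.17), blue and red mark genes called lower and higher, and the named genes are those called.

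The genes whose profile over the 4 libraries lay nearest to the mean profile of the 10 were LRP5, LPCAT1 and MDFI, among 10205 other genes with a mean of at least 50 counts. The Euclidean distances on centred log2 CPM were 0.00725, 0.00902 and 0.0197. LRP5 had a log2 fold change of -0.53, LPCAT1 of -0.52 and MDFI of -0.55. Likeness over 4 libraries rests on the group difference and the spread within each group alone.

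All of these fold changes are relative to the scaling of the libraries. Scaled by total count alone in place of TMM, the median over all genes moved from 0.01 to -0.08 and the calls from 1334 higher and 1642 lower to 733 higher and 2451 lower, or from 44.8% to 23.0% higher. Under that scaling the median of the 10 genes was -0.54. With the GC trend removed it was -0.33.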

How the data were processed

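The data are RNA-seq gene counts of DLD1 cells, with 2 libraries each of OE-WT and CTRL. The deposited values are raw counts per Ensembl gene identifier, made by the authors with both lanes of a library in 1 column. The submitters' processing notes name HISAT2 2.2.1, featureCounts 2.0.0 and DESeq2 1.34.0 on GRCh38, whereas the methods of the study name another HISAT2 version, HTSeq and edgeR. The labels describe poly(A) selection and a stranded kit, the methods ribosomal RNA removal and more replicates than the table holds. The strand setting of the counting is not given in the sources used here. Such differences could alter counts of overlapping genes and of RNAs without a poly(A) tail.

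Symbols, exons and coding sequences came from GENCODE release 44, which matched 57532 of the 58302 identifiers. Genes were kept by filterByExpr with a minimum count of 10, scaled by TMM and tested in edgeR 4.0.16 (R 4.3.3) by the quasi-likelihood test on the 4 libraries, with Benjamini-Hochberg adjustment over 14133 genes. The SE was taken from the F statistic, as the absolute log2 fold change over its square root. CPM used TMM-scaled library sizes, and RPKM divided CPM by the exon union in kilobases. DESeq2 1.42.0 was an alternative test. Other alternatives were RLE factors, library size alone, other count filters, a replicate block, removal of the trend on GC content (span 0.3) and leaving out each library, where the lone library of a group was assumed to vary like the other group. The test was tested on simulated data with 200 changed of 14133 genes. It recovered 36.1% of log2 changes of 0.3 to 0.6 and 64.1% of those of 0.6 to 1, with 6.25% of calls false. Far more genes, 2976, were called in the data, so these rates need not hold there. Count limits cover counting error only.

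The 10 genes and the lists (other family genes, co-receptors, cytoplasmic effectors, proteases, cell type markers) were chosen with earlier results of these data known. Genes named are the overexpressed pair, all family genes tested, up to 5 called genes with the largest change per other list, and the 3 nearest in profile. Genes named in addition (MET, VEGFA, ITGB1, FURIN, ADAM10, ADAM17 and marker genes) were chosen after their values were seen.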

Additional observations from a re-analysis of the deposited data

How the results depend on the processing

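Of the 10 genes, 9 had a log2 fold change below 0 in each of the 11 alternatives, and between 6 (without CTRL replicate 1) and 8 were called lower over the same 11. Only NRP1 and SEMA4C lost a call and only SEMA3F gained one, as given above. The median of the 10 genes was -0.45, moved to -0.54 with library size scaling alone and to -0.33 with the GC trend removed, and ran from -0.50 to -0.42 when a library was left out. Over all genes, 2976 were called, against 1377 by DESeq2, of which 1376 were shared, and between 1903 (without CTRL replicate 1) and 2852 when a library was left out. The 445 genes past the thresholds of the study became 288 by DESeq2, 738 of 26095 tested without the filter, and 216 of 13094 where each library had to reach 10 counts. DESeq2 called 3 of the other family genes, 3 of them lower, in place of 7 and 6. The cause of the DESeq2 differences was not tested. The calls in the 3 lists of co-receptors, effectors and proteases, 11 in all, were between 8 and 13. No result changed direction among the 10 genes.

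Same-numbered libraries did not deviate together (correlation -0.07), so the numbers were not taken as pairs. With a replicate block, 2658 genes and 7 of the 10 were called, NRP1 being the one lost. With 2 libraries a group, genes of few counts such as SEMA4C and PLXND1 had the widest errors.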
